A study of Homo sapiens with 8 samples.

Results

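Intermediate filaments are described here in 22RV1 cells that had received a mimic of the microRNA miR-194. The genes are the type II keratins KRT8 and KRT7, the type I keratins KRT18 and KRT19, the filament gene VIM, and PLEC and DSP, which encode proteins that anchor filaments. They are 7 of the 23346 gene symbols in the table of read counts, each taken as the row of that symbol. They were chosen by their fold changes between the groups in these same libraries, in part because KRT18 and VIM were higher with the mimic and because KRT18 is listed with a miR-194 site. Their differences between the groups are therefore given as a description, without a test.

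22RV1 is an established human prostate cancer cell line derived from a xenograft. The mimic group received the miR-194 mimic at 20 nM and the negative control group received a control RNA at the same 20 nM, both by transfection of cells in suspension. Cells of both groups were grown in RPMI1640 with 10% serum and collected 36 h later, and there were 4 libraries per group. The title of the series asks how miR-194 acts after transcription while prostate cancer cells take on neuroendocrine traits. Nothing in the labels shows whether the replicates came from separate cultures, so the p-values may reflect technical spread alone. No untransfected cells were analysed here.

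Keratin filaments are built from pairs of a type I and a type II keratin, and the pair of KRT8 and KRT18 is the main one of simple epithelia, including the luminal cells of the prostate. Either protein without its partner is broken down. Vimentin forms filaments by itself and is the usual filament of mesenchymal cells, and many cancer cell lines contain it together with keratins. Plectin, from PLEC, ties filaments to each other, to actin and to adhesion sites, and desmoplakin, from DSP, ties keratin filaments to desmosomes.

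A microRNA guides silencing proteins to messenger RNAs, mostly through pairing of its seed, bases 2 to 8, with the 3′ UTR. The sequence of miR-194-5p, from RefSeq (GRCh38.p14), is shown with its seed in capitals because every site below is read from it. It is encoded on the minus strand at chr1:220118206-220118227 and at chr11:64891404-64891425.
miR-194-5p: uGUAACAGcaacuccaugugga

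Sites in messenger RNA were matched as letters on the transcript strand: CTGTTACA for an 8mer, CTGTTAC for a 7mer-m8, TGTTACA for a 7mer-A1 and TGTTAC for a 6mer, with each longer site containing the shorter ones. GENCODE 29 on GRCh38 supplied the transcripts, while the submitters' processing notes name hg19, so genes were joined by symbol. Among the 7 genes, KRT18 was the 1 with an 8mer or 7mer in its longest annotated 3′ UTR, and that site was an 8mer. It lies at chr12:52952713-52952720 on the plus strand (GRCh38), from base 367 of a 3′ UTR of 466 bases. Among 1370 tested genes whose 3′ UTR was within 25% of that length, 0.949% held an 8mer and 5.40% held an 8mer or a 7mer. The site is shown with 10 bases on each side, the 8mer in capitals.
KRT18 8mer: gcttggtcttCTGTTACAgtcttggtga

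This 3′ UTR belongs to 1 of the 3 annotated coding transcripts of KRT18, and not to a principal one, the transcripts that GENCODE ranks as the main isoform. In both principal transcripts the same bases are the end of the last intron, at 52952343 to 52952721. The final A of the 8mer and the g after it are the last bases of that intron, and 1 base separates the site from the last exon. The principal transcripts have 3′ UTRs of 59 and 58 bases with no 8mer or 7mer. After splicing, exon 6 is joined to exon 7 of the principal transcript with 7 exons as shown, with the start of the last exon in capitals and the 8mer removed.
KRT18 spliced junction: aggactttaaTCTTGGTGAT

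With principal transcripts alone, a choice made after seeing the data, 0 of the 7 genes held an 8mer or a 7mer in the 3′ UTR. The same distinction was made for every tested gene whose longest 3′ UTR held an 8mer. In 477 of them the principal 3′ UTR also held an 8mer or 7mer, and 53.2% of these fell with the mimic and 7.97% rose, by the quasi-likelihood test of edgeR (Benjamini-Hochberg adjusted p under 0.05), with a median log2 fold change of -0.22. In the other 62, KRT18 among them, the principal 3′ UTR held none, and 25.8% fell and 16.1% rose, with a median of -0.01. Of the 8363 genes with no site, 13.3% fell and 22.6% rose, with a median of 0.04. Differences between these groups were not tested, and which KRT18 transcript the reads came from cannot be read from counts per gene.

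**Figure D1:**
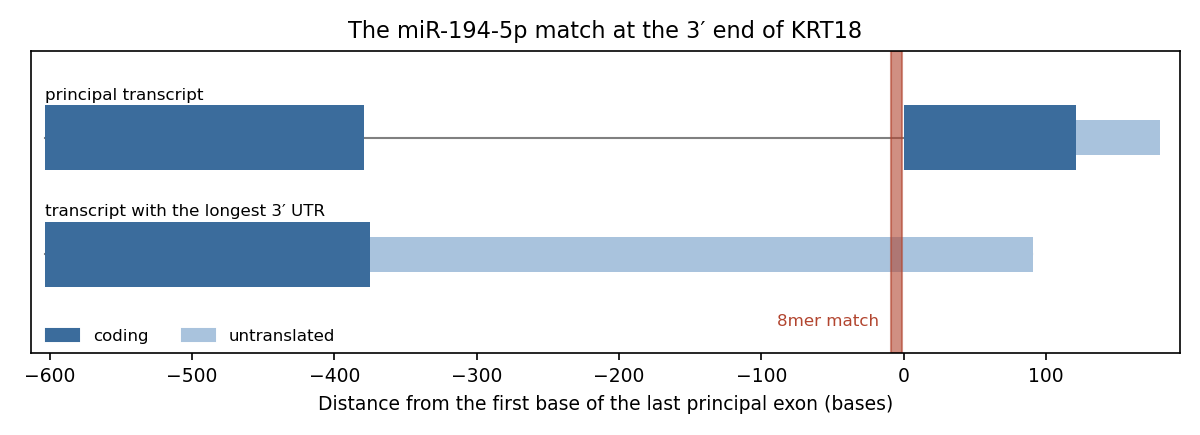
The 3′ end of KRT18 in a principal transcript and in the transcript with the longer 3′ UTR, by distance in bases from the first base of the last principal exon. Thick boxes are coding, thin boxes are untranslated, and the miR-194 8mer falls in the last intron of the principal transcript and in the 3′ UTR of the other.

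DSP held a 7mer-A1 in its coding sequence, at chr6:7574229-7574235 on the plus strand (GRCh38), from base 2274 of 8616 coding bases. The other 6 genes had no 8mer or 7mer in the coding sequence of the principal transcript. Coding sites of these kinds were present in 12.5% of 12669 tested genes, and in 49.5% of the 208 genes whose coding sequence was within 25% of the length of that of DSP. The DSP site is shown with 10 bases on each side, the 7mer in capitals.
DSP coding 7mer-A1: atatcaatggTGTTACAgatggctact

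The libraries held between 32485036 and 47248241 counts. After a filter on low counts 14977 genes were tested, and all 7 genes described here passed it. In this comparison 38.1% of the tested genes were called, 18.3% higher and 19.9% lower with the mimic, and 36.9% had no overlap between the groups. The median log2 fold change of all tested genes was 0.00. A first principal component with 51.1% of the variance separated the groups, and a second with 20.6% separated replicates 1 and 2 from replicates 3 and 4 in both groups. Of the 7 genes, 4 were called higher, 1 was called lower, and 6 had groups that did not overlap, and since these values chose the genes nothing is read from those counts. Levels below are CPM, counts scaled to a common library size, and fold changes are log2 of mimic over control with the standard error (SE).

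Among the type II keratins, KRT8 was the more abundant and was slightly higher with the mimic. KRT8 (chr12:52897187-52949954, minus strand, GRCh38) had 1269.8, 1309, 1445 and 1381 CPM in mimic replicates 1 to 4, against 1182, 1185, 1268 and 1197 CPM in control replicates 1 to 4. The groups did not overlap but nearly touched, since mimic replicate 1 lay just above control replicate 3. The means were 1351 ± 77.4 CPM in mimic libraries and 1208 ± 40.4 CPM in control libraries (SD, n = 4 each), and the log2 fold change was 0.16 ± 0.04. Of all tested genes, 49.3% had a fold change of larger size.

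KRT7, a type II keratin of ductal and glandular epithelia, stood at much lower counts. KRT7 (chr12:52232520-52252186, plus strand) had 41.3, 40.2, 41.1 and 43.6 CPM in the mimic libraries and 39.8, 39.6, 37.6 and 39.3 CPM in the control libraries. All 4 mimic libraries were above the highest control library, with mimic replicate 2 only narrowly so. The log2 fold change was 0.09 ± 0.04, and 69.3% of the tested genes had a larger one.

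KRT18, the type I partner of KRT8, differed more than KRT8 did. KRT18 (chr12:52948871-52952901, plus strand) had 887, 949.5, 1051 and 917 CPM in the mimic libraries, against 662, 724, 729 and 719.8 CPM in the control libraries. The lowest mimic library was well above the highest control library, and control replicate 1 was apart from the other control libraries. The means were 951 ± 71.0 CPM with the mimic and 709 ± 31.6 CPM with the control (SD, n = 4 each). The log2 fold change was 0.42 ± 0.05, a fold of 1.34. It was between 0.38 and 0.46 when any 1 library was left out.

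KRT19, a small type I keratin that lacks most of the tail domain, had 14.3, 15.7, 15.6 and 14.5 CPM in the mimic libraries and 13.2, 13.4, 11.5 and 11.5 CPM in the control libraries. The groups did not overlap, and among the controls replicates 1 and 2 were the higher ones. KRT19 (chr17:41523617-41528308, minus strand) had a log2 fold change of 0.27 ± 0.07. Within replicates 1 and 2 it was 0.16, and within replicates 3 and 4 it was 0.39.

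VIM had the largest fold change of the 7 genes. VIM (chr10:17228259-17237593, plus strand) had 37.6, 39.0, 41.6 and 38.4 CPM in the mimic libraries, against 24.97, 25.9, 24.3 and 26.1 CPM in the control libraries. Every mimic library was far above every control library, and the libraries within each group lay close together. The means were 39.1 ± 1.74 CPM with the mimic and 25.3 ± 0.812 CPM with the control (SD, n = 4 each). The log2 fold change was 0.63 ± 0.05, a fold of 1.55. Of the tested genes, 6.23% had a larger change.

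The linkers went separate ways. DSP (chr6:7541575-7586717, plus strand) had 159.9, 161, 166 and 180.0 CPM in the mimic libraries, against 199, 192, 227 and 218 CPM in the control libraries. It was the 1 gene of the 7 that was lower with the mimic, without overlap, and its log2 fold change was -0.33 ± 0.06, a fold of 0.798. The means were 167 ± 9.35 CPM in mimic libraries and 209 ± 16.4 CPM in control libraries (SD, n = 4 each).

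PLEC had 174, 192, 182 and 141 CPM in the mimic libraries and 152, 179, 146 and 126 CPM in the control libraries, and here the groups overlapped. The log2 fold change was 0.19 ± 0.12, and it was between 0.11 and 0.28 when any 1 library was left out. In both groups replicate 2 was the highest and replicate 4 the lowest, and the spread within a group was 12.8% of the mean with the mimic and 14.5% with the control, against at most 1.37% from counting alone. Each mimic library was above the control library of the same number, by 0.10 to 0.31 on the log2 scale, and a fit with the replicate number as a block gave 0.19 ± 0.04. The same replicates were the highest and the lowest in both groups in 9 of 77 other genes compared, among them PKP3, EVPL, FAM83H, LMNB1 and LMNB2.

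The other 6 genes were also read pair by pair. KRT8, KRT7, KRT18, KRT19 and VIM were higher in the mimic library in 4 of 4 pairs, as were 29.7% of the tested genes, and DSP was lower in 4 of 4, as were 29.9%. The groups of these 6 genes did not overlap, so any pairing of the libraries gives 4 of 4. The pairs therefore add nothing on direction, and only the size of the differences is read from them. The differences ran from 0.35 to 0.53 for KRT18, from 0.56 to 0.77 for VIM and from -0.45 to -0.25 for DSP. For KRT7 they ran from 0.02 to 0.15, so that a pair without a visible difference was among them. Computed from replicates 1 and 2 alone and then from replicates 3 and 4 alone, the fold change was 0.40 and 0.44 for KRT18, 0.59 and 0.67 for VIM, and -0.29 and -0.36 for DSP.

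**Figure D2:**
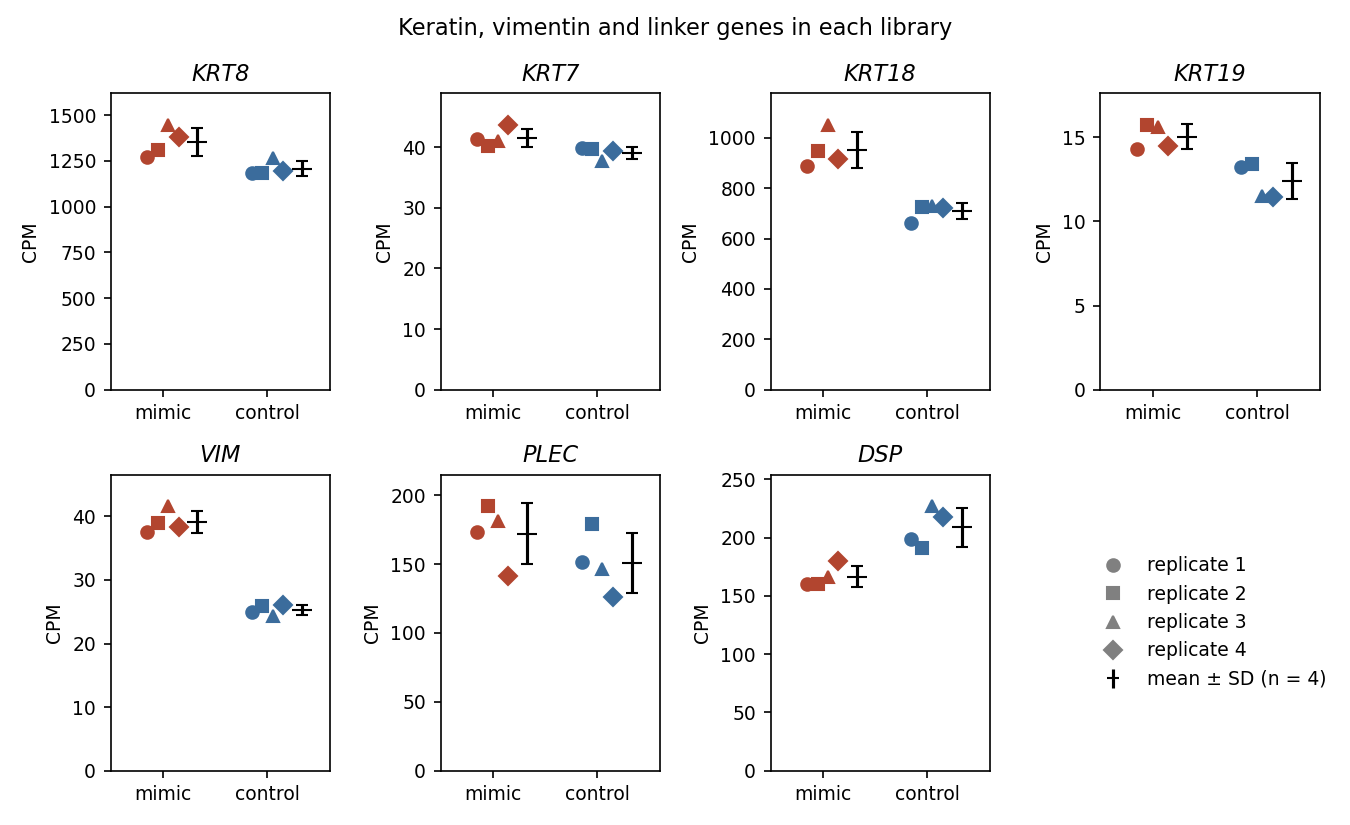
CPM of the 7 genes in each library, mimic on the left and control on the right of each panel, with points for libraries and bars for the mean ± SD (n = 4). The groups separate widely for KRT18 and VIM, DSP is the 1 gene lower with the mimic, and PLEC overlaps.

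Because keratins work in pairs, the counts of partners were set against each other within each library, which removes library size. The log2 ratio of KRT8 to KRT18 counts was 0.52, 0.46, 0.46 and 0.59 in the mimic libraries, against 0.84, 0.71, 0.80 and 0.73 in the control libraries. The groups did not overlap, and the ratio was lower by 0.26 on the log2 scale with the mimic. This is 1.42 KRT8 counts per KRT18 count in mimic libraries and 1.70 in control libraries. When any 1 library was left out the difference was between -0.29 and -0.24.

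Together KRT8 and KRT18 held 0.215% to 0.248% of all counts in mimic libraries and 0.184% to 0.202% in control libraries. The log2 ratio of VIM to the sum of both was -5.84, -5.86, -5.91 and -5.90 in the mimic libraries, against -6.21, -6.20, -6.36 and -6.20 in the control libraries. VIM was thus higher relative to this keratin pair by 0.37, at 0.0170 counts per keratin count with the mimic and 0.0132 with the control. The ratios of KRT7 to KRT8 and of KRT19 to KRT18 overlapped between the groups, with differences of -0.07 and -0.15. These ratios come from the same counts that chose the genes and are a description.

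**Figure D3:**
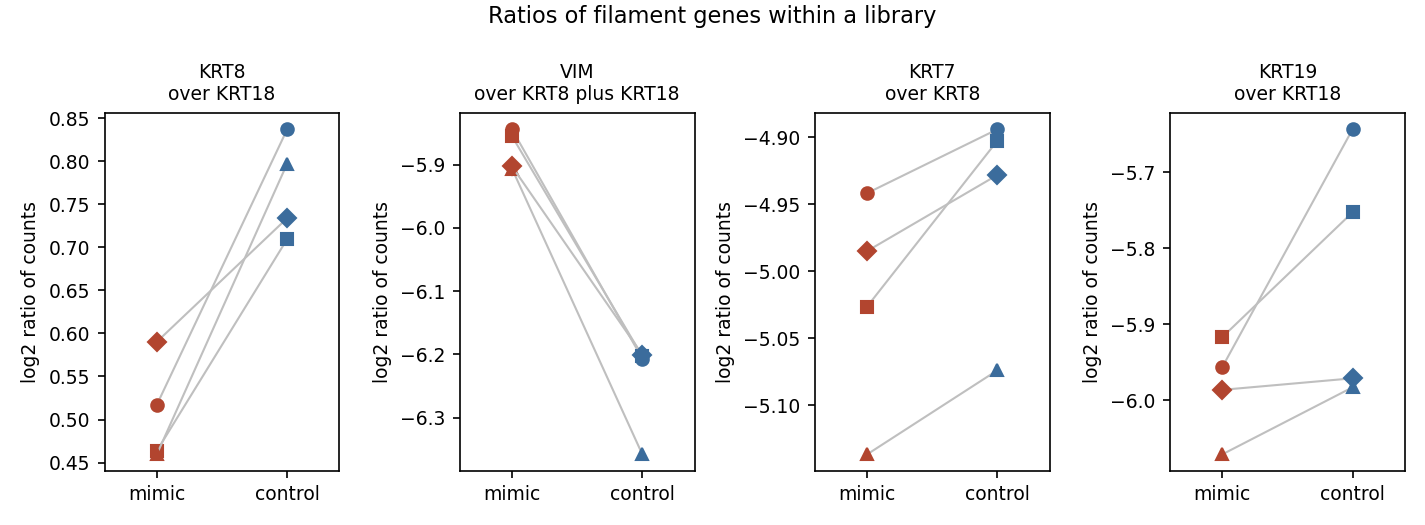
Log2 ratios of counts within each library for KRT8 over KRT18, VIM over KRT8 plus KRT18, KRT7 over KRT8 and KRT19 over KRT18, mimic on the left, with grey lines joining libraries of the same number and marker shapes standing for that number. The ratio of KRT8 to KRT18 is lower in all 4 mimic libraries and that of VIM to the keratin pair is higher, while the other ratios overlap.

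To compare levels between genes, CPM were divided by transcript length in kilobases. By the median length of coding transcripts, KRT8 had 801 ± 45.9 CPM per kb in mimic libraries and 716 ± 24.0 in control libraries (SD, n = 4 each), and KRT18 had 609 ± 45.4 and 454 ± 20.2. Every other gene of the 7 was below 50 CPM per kb in both groups. By principal transcript length KRT8 had 636 ± 36.4 CPM per kb and KRT18 609 ± 45.4 in mimic libraries, where the ranges of both genes overlapped. In control libraries KRT8 had 568 ± 19.0 CPM per kb and KRT18 454 ± 20.2, and the ranges were apart.

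Among the less abundant genes the order depended on the group. By median length VIM had 29.8 ± 1.33 CPM per kb and DSP 18.9 ± 1.06 in mimic libraries, while in control libraries VIM had 19.3 ± 0.619 CPM per kb and DSP 23.7 ± 1.87. By principal length the mimic libraries had 18.3 ± 0.817 CPM per kb for VIM and 17.0 ± 0.955 for DSP, which overlapped, and the control libraries had 11.9 ± 0.380 for VIM and 21.3 ± 1.68 for DSP. KRT7 was above both by median length and overlapped with DSP in control libraries by principal length. PLEC was the lowest by median length, and by principal length it overlapped with KRT19 at the bottom of the order in both groups. In control libraries PLEC, at 8.27 to 11.75 CPM per kb by principal length, also overlapped with VIM, at 11.40 to 12.21.

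**Figure D4:**
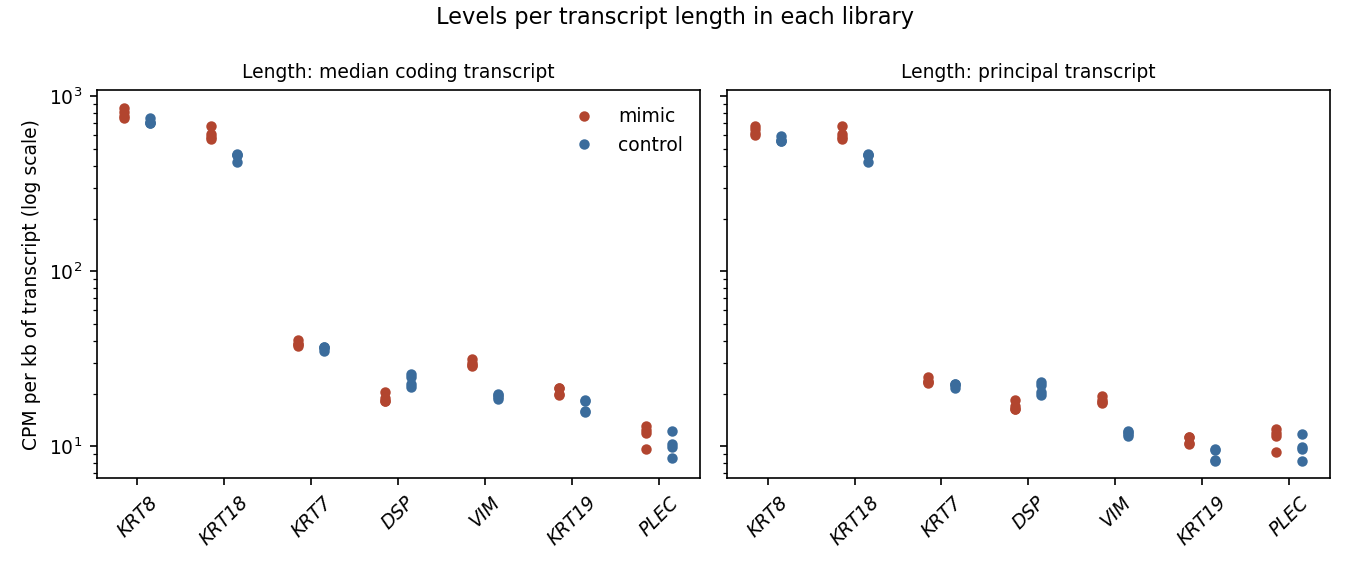
CPM per kilobase of transcript for the 7 genes on a log axis, mimic beside control, by the median length of coding transcripts and by principal transcript length. KRT8 and KRT18 lie far above the rest, and VIM and DSP change places between the groups by median length.

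Some reads of these genes may be shared with others, and the sources used here do not give how the counting treated such reads. Of the 50-base stretches of the principal transcript, 32.7% in KRT8 and 31.8% in KRT18 also occur in transcripts of other genes, most often the pseudogenes KRT8P3 and KRT18P11. The share was 1.79% for KRT19, 0.997% for KRT7, 0.592% for PLEC and 0% for VIM and DSP. Of 50 named KRT8 pseudogenes and 68 named KRT18 pseudogenes, 1 of each had a row in the table. KRT18P55 had 3 to 14 counts per library and KRT8P41 had 0 to 2. These counts do not show where reads shared with the other pseudogenes were counted. KRT8 and KRT18 are neighbours read in opposite directions, and 375 exonic bases of KRT18 overlap transcripts of KRT8. The antisense gene VIM-AS1 overlaps 641 exonic bases of VIM, so without a known strand setting reads of such partners cannot be told apart.

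Other keratins were nearly absent. Of the 50 other type I and type II keratins looked up, 23 had no count in any library, 25 had counts too low to be tested, and 2 were tested. KRT10, a keratin of differentiating epidermis, rose with the mimic, with 11.5 ± 0.650 CPM against 9.66 ± 0.802 CPM in control libraries and a log2 fold change of 0.25 ± 0.08 (SD, n = 4 each, edgeR adjusted p = 0.0199). The groups overlapped, and the adjusted p was 0.0603 without control replicate 3, 0.0526 without control replicate 2 and 0.0534 without mimic replicate 3. KRT80 was at 0.694 ± 0.238 CPM with the mimic and 0.818 ± 0.216 CPM with the control and was not called.

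Among the other intermediate filament genes, 11 of 15 were tested, 1 rose and 2 fell, with a median log2 fold change of -0.02. LMNB1, which encodes the nuclear filament lamin B1, fell to 241 ± 12.5 CPM in mimic libraries, against 334 ± 14.4 CPM in control libraries (SD, n = 4 each, log2 fold change -0.47 ± 0.04, edgeR adjusted p = 7.78e-06). SYNM, which encodes a filament protein that joins with vimentin and desmin, fell as well, by 0.22 (edgeR adjusted p = 0.00539). NEFH, the heavy neurofilament subunit, rose by 0.19 (edgeR adjusted p = 0.00331). NES, LMNA and NEFL were not called.

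PLEC and DSP belong to the plakins, and of the 5 other plakins 2 rose and 0 fell, with a median log2 fold change of 0.24. Over all tested genes, 18.3% rose and 19.9% fell. EPPK1, which encodes epiplakin, a keratin-binding plakin, had 25.9, 29.2, 31.3 and 26.3 CPM in the mimic libraries, against 15.8, 19.7, 15.6 and 14.04 CPM in the control libraries. All mimic libraries were above all control libraries, and the log2 fold change was 0.78 ± 0.10 (edgeR adjusted p = 0.000119). PPL, or periplakin, was rare and rose by 0.73 ± 0.11 (3.40 ± 0.412 CPM with the mimic and 2.05 ± 0.0835 CPM with the control, SD, n = 4 each, edgeR adjusted p = 0.000365). EVPL, its partner envoplakin, had a log2 fold change of 0.24 ± 0.11 and was not called (adjusted p = 0.0970). With the replicate block 4 of the 5 were called, with EVPL at an adjusted p of 0.000297 and MACF1, at -0.14, at 0.0233, and 4 were also called without control replicate 2.

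DSP links filaments to the desmosome, and of 13 other desmosome genes 10 were tested, 2 rose and 4 fell. Over all tested genes, 18.3% rose and 19.9% fell. The median log2 fold change of the desmosome genes was -0.04. It was -0.15 with a filter of at least 1 CPM in 4 libraries and -0.11 without control replicate 4. DSC2, a desmosomal cadherin, had 454, 477, 422 and 433 CPM in the mimic libraries, against 642, 610.2, 615 and 597 CPM in the control libraries. No mimic library reached the lowest control library, and the log2 fold change was -0.47 ± 0.04 (edgeR adjusted p = 5.34e-06). DSC2 was the 1 called gene of this list with an 8mer or 7mer in the principal 3′ UTR, and it held a 7mer-A1 at chr18:31067752-31067758 and a 7mer-m8 at chr18:31067399-31067405, both on the minus strand (GRCh38). Its 3′ UTR has 9175 bases, and among 366 tested genes whose 3′ UTR was within 25% of that length, 62.0% held an 8mer or 7mer. The sites are shown with 10 bases on each side, the 7mers in capitals, beside the KRT18 site given above.
DSC2 7mer-A1: ctgccttattTGTTACAtttgggtata
DSC2 7mer-m8: tgtgtctcctCTGTTACctacttttgc

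The plaque proteins that sit between such cadherins and desmoplakin moved in both directions. PKP1, plakophilin 1, fell to 4.27 ± 0.118 CPM with the mimic, against 6.70 ± 0.499 CPM with the control (SD, n = 4 each, log2 fold change -0.65 ± 0.08, edgeR adjusted p = 7.25e-05). JUP, which encodes plakoglobin, rose to 158 ± 10.1 CPM with the mimic, against 134 ± 1.78 CPM with the control (SD, n = 4 each, log2 fold change 0.24 ± 0.04, edgeR adjusted p = 0.00141). PERP, a desmosome-associated membrane protein, fell by 0.20 (edgeR adjusted p = 0.0043). DSG2, the other desmosomal cadherin at high counts, was not called, at 358 ± 12.3 CPM with the mimic and 345 ± 9.58 CPM with the control (SD, n = 4 each).

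In hemidesmosomes, where plectin binds integrin, 6 of 7 genes were tested, 0 rose and 2 fell. The shares over all tested genes were 18.3% and 19.9%. The median log2 fold change of this list was 0.01, but replicates 1 and 2 alone gave -0.17 and replicates 3 and 4 alone gave 0.16, and it ran from -0.09 without control replicate 4 to 0.10 without control replicate 1, so it has no stable sign. LAMA3, a chain of the laminin below these junctions, was rare and fell by 1.01 on the log2 scale (SE 0.17, edgeR adjusted p = 0.0008). ITGA6, the integrin α6 chain, fell by 0.38 (edgeR adjusted p = 0.00328). ITGB4, the integrin chain to which plectin binds, had 0.668 ± 0.0809 CPM with the mimic and 0.679 ± 0.249 CPM with the control (SD, n = 4 each) and was not called.

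Genes that act on keratin filaments were tested in 18 of 18 cases, and their median log2 fold change was -0.09. In this list 4 rose and 8 fell, against 18.3% and 19.9% of all tested genes. YWHAZ, a 14-3-3 adaptor of the family that binds phosphorylated keratin 18, fell to 928 ± 14.5 CPM in mimic libraries, against 1289.5 ± 53.7 CPM in control libraries (SD, n = 4 each, log2 fold change -0.48 ± 0.03, edgeR adjusted p = 1.08e-06). SFN, or 14-3-3 sigma, fell by 0.39 (edgeR adjusted p = 5.17e-06), and CSNK1A1, a kinase recruited to keratin filaments by FAM83H, fell by 0.40 (edgeR adjusted p = 1.74e-06). DNAJB6, a co-chaperone that binds keratin 18, rose by 0.39 (edgeR adjusted p = 5.49e-06). YWHAZ held a 7mer-m8 in its principal 3′ UTR, and CSNK1A1 held a 7mer-m8 in its longest 3′ UTR but none in the principal one. The longest 3′ UTRs of YWHAZ and CSNK1A1 have 4168 and 4656 bases. SFN and DNAJB6 held no site in either 3′ UTR. The shares of genes with a site are given below for the lists and for all tested genes.

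Since VIM is a common marker of the epithelial-mesenchymal transition, 23 of its regulators were looked up, of which 19 were tested. Of these 3 rose and 1 fell, against 18.3% and 19.9% of all tested genes, and the list median log2 fold change was 0.00. GRHL1, an epithelial transcription factor, fell to 12.6 ± 0.448 CPM with the mimic, against 20.0 ± 0.230 CPM with the control (SD, n = 4 each, log2 fold change -0.67 ± 0.05, edgeR adjusted p = 1.54e-06). TGFB1, a growth factor that induces the transition, rose by 0.40, and TWIST1, a mesenchymal transcription factor, rose by 0.25 (edgeR adjusted p = 0.00669 and 0.0152). For TGFB1 the groups overlapped. Of the 19 tested regulators, 15 were not called. EPCAM and CDH1, from the luminal marker list below, rose by 0.27 and 0.13 (edgeR adjusted p = 4.92e-05 and 0.00503). In that list, outside KRT8 and KRT18, 3 of 6 genes rose and 1 fell. GRHL2, an epithelial factor with an 8mer in its principal 3′ UTR, rose by 0.11 (edgeR adjusted p = 0.0264), a call that was lost when any 1 of 5 libraries was left out, with adjusted p from 0.0532 without mimic replicate 2 to 0.068 without control replicate 2. The other such libraries were mimic replicate 1, at 0.0569, control replicate 1, at 0.0586, and control replicate 4, at 0.0626.

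Over the 71 tested genes of these lists, an 8mer or 7mer in the principal 3′ UTR was held by 3 of 17 genes that fell, 1 of 13 that rose and 6 of 41 that were not called. Over all tested genes with a 3′ UTR, such a site was held by 38.7% of 2576 genes that fell, 10.5% of 2493 that rose and 14.4% of 7469 that were not called. By the longest 3′ UTR it was held by 4 of the 17 list genes that fell, against 41.6% of all genes that fell.

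**Figure D5:**
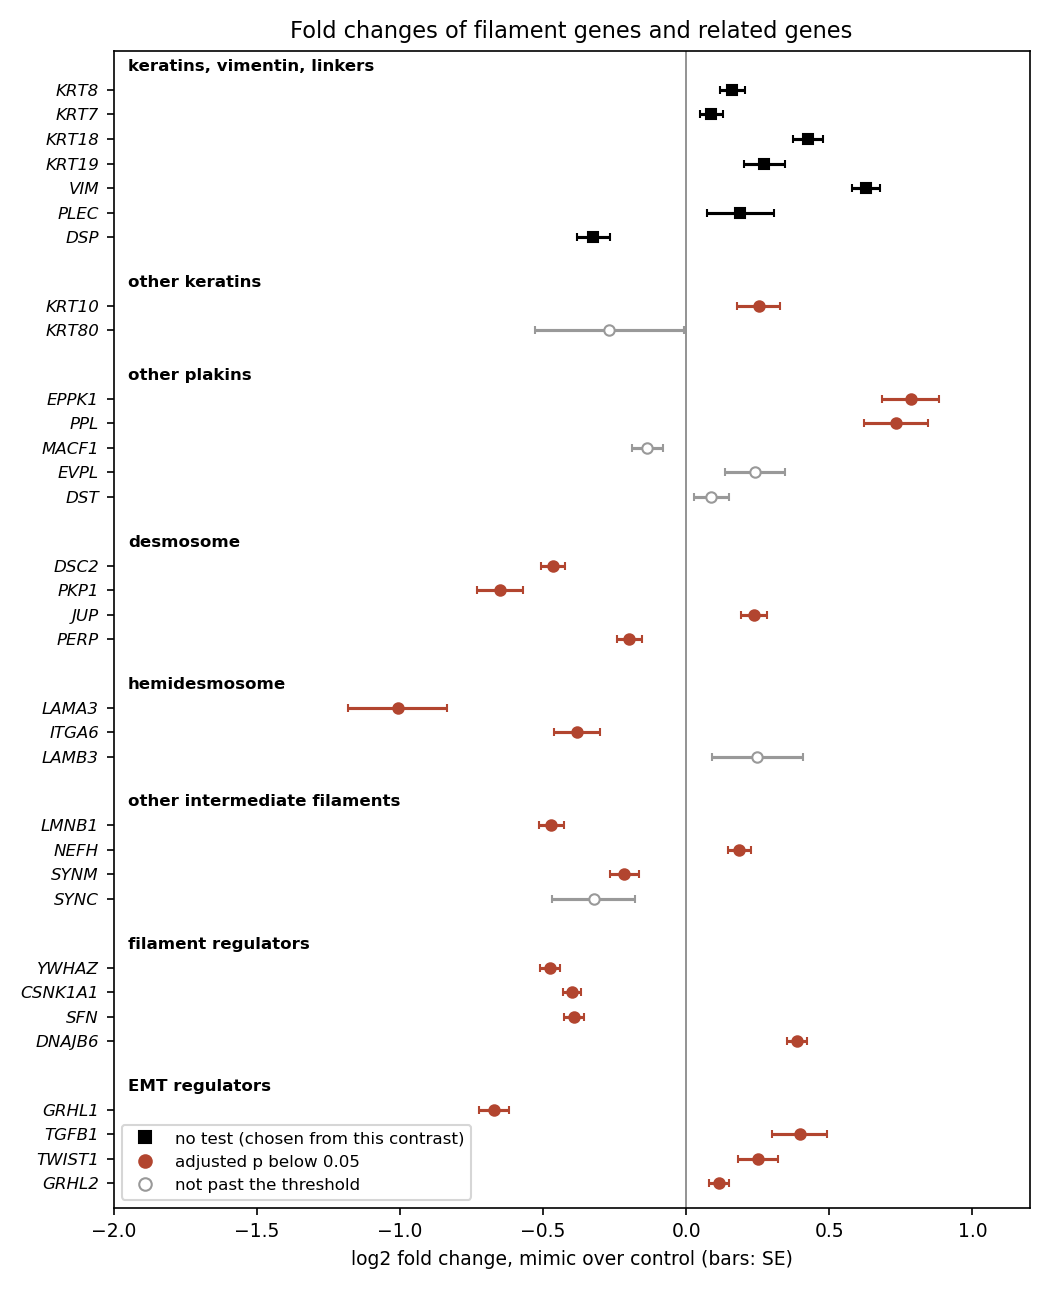
Log2 fold change of mimic over control with its SE for the 7 genes (squares, given without a test) and for named genes of the filament, plakin, junction and regulator lists (circles, filled where edgeR's adjusted p was below 0.05). VIM and KRT18 lie right of 0 and DSP left of it, and EPPK1 and PPL lie right of 0 among the plakins while DSC2 and PKP1 lie left of it among the desmosome genes.

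Genes whose pattern over the 8 libraries was most like that of KRT18 and VIM were found among 10302 genes, by the root mean square difference of centred log2 CPM. For KRT18 these were MGC14436 at 0.0387, TRIM3 at 0.0426 and OSBPL5 at 0.0443. For VIM they were TMEM9B at 0.0323, MAPKAPK3 at 0.0422 and SMPDL3A at 0.0439.

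The marker lists bear on what the cells were. All 8 luminal markers were tested, and KRT8 and KRT18, which are among them, held over 0.5 of their summed level. Of the other 6, 3 rose and 1 fell, against 18.3% and 19.9% of all tested genes. The summed levels of these 6 overlapped, at 1785 to 1828 CPM in mimic libraries and 1739 to 1786 CPM in control libraries. The 5 basal markers were not tested in any case and summed to at most 0.251 CPM with the mimic and 0.124 CPM with the control. Of the cells that commonly contain vimentin, fibroblast markers summed to 48.1 to 56.7 CPM in mimic libraries and 44.7 to 52.5 CPM in control libraries, mostly from LUM, which was not called, while COL1A1 rose by 0.26 (edgeR adjusted p = 0.00813). Markers of endothelium, which also contains vimentin, summed to at most 0.0714 CPM with the mimic and 0.0509 CPM with the control, with PECAM1 and CDH5 at 0 in every library. Smooth muscle markers summed to at most 1.57 CPM with the mimic and 2.35 CPM with the control, and ACTA2 fell by 0.85 (edgeR adjusted p = 0.00177). Leukocyte markers summed to 5.83 to 8.42 CPM in mimic libraries and 3.61 to 4.48 CPM in control libraries, mostly from CD68. CD68 was the 1 of 4 tested and rose by 0.78 (edgeR adjusted p = 0.000444). The other leukocyte markers, PTPRC, CD3E and LYZ, were each at most 0.170 CPM in any library. Neuroendocrine markers summed to 357 to 389 CPM with the mimic and 355 to 380 CPM with the control, mostly from ENO2 and SYP, which were not called. Among them CHGA rose to 10.2 ± 1.24 CPM with the mimic, against 6.66 ± 0.932 CPM with the control (SD, n = 4 each, log2 fold change 0.61 ± 0.11, edgeR adjusted p = 0.00134). Every library came from the same cell line, so a marker level here is a level in that line and not a count of fibroblasts or leukocytes. Whether the markers that moved, CD68 and COL1A1 among them, have a part in the VIM difference was not tested. In bulk RNA, more cells that express a gene and more of its RNA per cell cannot be told apart.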

How the data were processed

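The authors deposited raw read counts per gene symbol for 8 libraries, of which 3370 of 23346 symbols had no count. Tools in the submitters' processing notes, without roles, are STAR, FastQC, cutadapt 1.8.1, edgeR 3.3 and R 3.2.3, and the build is hg19. The counting program, annotation and strand setting are not given in the labels or notes. The 7 genes and all lists were chosen with earlier results of these data known.

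The deposited counts were filtered (filterByExpr), TMM normalised and tested with edgeR 4.0.16's robust quasi-likelihood fit in R 4.3.3 on all 14977 genes, with group as the only term and Benjamini-Hochberg adjustment at 0.05. Per library, 3 counts amount to 0.0638 to 0.0930 CPM, a floor for counting error only. Centred log2 CPM used a prior count of 2, and genes whose mean was 3 or more were ranked for likeness. Named genes were the 7, every tested keratin and plakin, the 4 smallest p of each other list, and the 3 genes most like KRT18 and VIM; PKP3, FAM83H, LMNB2, DSG2, ITGB4, NES, LMNA, NEFL and the marker genes outside these were named after their values were seen. Of the genes so picked, 1 is not reported here, and none took its place. DESeq2 1.42.0 and limma-voom (limma 3.58.1) were alternatives. Sites were searched in 3′ UTRs of at least 50 bases, which 83.7% of tested genes had, with Python 3.11.15, pandas 2.3.3 and numpy 2.4.6. The main edgeR fit was tested on simulated counts, and the site search was tested on made-up sequences. The other steps were not tested in this way.

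Replicate numbers are shared by the groups in the sample titles. Same-numbered libraries deviated together, with correlations of 0.27, 0.34, 0.18 and 0.43, which met the rule for pairing (above 0.1), although exchanged numbers also reached 0.28, 0.26, 0.20 and 0.32. No label ties a number to a day or batch. Within groups, replicates were farther apart than counting noise, with a chi-square per degree of freedom of 3.79 to 17.7.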

Additional observations from a re-analysis of the deposited data

Results flagged for a closer look

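Of 74 groups of 4 libraries, 5 had 1 library far from the other 3, by a gap beyond Dixon's 95% limit, and chance gives this in about 1 in 20 groups. Control replicate 1 had 662 CPM for KRT18, against 720 to 729 CPM in the other control libraries. It also had 131 CPM for JUP, against about 135 CPM in the others. Control replicate 2 had 12.8 CPM for TGFB1, against 9.92 to 10.3 CPM. Mimic replicate 2 had 92.6 CPM for DNAJB6, against 89.4 to 89.8 CPM in the other mimic libraries. The log2 ratio of VIM to KRT8 plus KRT18 was -6.36 in control replicate 3, against -6.21 to -6.20 in the other control libraries, and the difference between the groups for this ratio was between 0.33 and 0.38 when any 1 library was left out.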

How the results depend on the processing

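The log2 fold changes of KRT8, KRT7, KRT18, KRT19, VIM, PLEC and DSP kept their direction in all 17 alternatives run for each. These alternatives re-use the counts that chose the 7 genes. Their directions, and the numbers of the 7 past the threshold given below, are therefore a description and not further support. With the replicate block 7616 genes were called, against 5712, and of the 7 genes 6 were past the threshold; of the genes named from the lists, SYNC (adjusted p = 0.00548), EVPL and MACF1 were called in addition, and the block changed no other call among them. Leaving out 1 library gave 4851 to 5469 called genes, 5 to 6 of the 7, 0 to 1 called other keratins and 2 to 4 called other plakins, and the replicate block gave 4 plakins. Called other keratins were 2 with no filter on low counts and 0 within replicates 3 and 4, and called regulators of the transition were 2 within replicates 1 and 2, where TGFB1 and TWIST1 were no longer called (adjusted p = 0.0556 and 0.153). KRT80 reversed to 0.23 within replicates 1 and 2, and the cause was not tested. Over all alternatives the median log2 fold change ran from -0.11 to 0.01 for the other intermediate filaments, from 0.16 to 0.34 (the highest without control replicate 2) for the other plakins, from -0.13 to -0.07 for the filament regulators and from -0.04 to 0.05 for the regulators of the transition. SYNC was called without mimic replicate 3 (adjusted p = 0.0445), MACF1 without mimic replicate 4 (0.0187), and within replicates 3 and 4 EVPL was called (0.0104) while SYNM (0.0731), KRT10 (0.0958) and GRHL2 (0.309) were not. With the longest coding transcript the control libraries had 496 CPM per kb for KRT8, 22.3 for KRT7, 418 for KRT18, 8.94 for KRT19, 11.9 for VIM and 21.3 for DSP, and with the principal transcript 568 for KRT8, 22.3 for KRT7, 8.94 for KRT19, 11.9 for VIM and 21.3 for DSP, all from transcript length alone. With principal transcripts 0 of the 7 genes held an 8mer or 7mer in the 3′ UTR. Each of the 7 genes had at least 453 counts in every library, so counting error was at most 4.70% of a value, and depth limits mainly the rare genes such as KRT80 and LAMA3. The settings with principal transcripts, and all alternatives for the ratios of KRT7 to KRT8 and KRT19 to KRT18, were chosen after seeing the data.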
